A study of Sus scrofa with 2 samples.

Results

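NF-kB is a family of dimeric transcription factors. The genes described here are its 5 subunits (NFKB1, NFKB2, REL, RELA and RELB) together with 4 genes that hold it in check or are made in response to it (NFKBIA, NFKBIZ, TNFAIP3 and BIRC3). The 9 genes were chosen by symbol, all 9 symbols were found among the 21301 genes listed in both UMI matrices, and the rule uses no measured value. The study applied droplet 3′ single-cell RNA sequencing to the pig thymus, in untreated mixed-breed pigs of 22 weeks. One library held live total thymocytes, and the other held live invariant natural killer T (iNKT) thymocytes, an innate-like T cell lineage of restricted T cell receptor, enriched from the thymi of the same animals by positive selection on magnetic beads. Cells of 2 pigs were combined within each library and cannot be assigned to an animal. There was therefore 1 library for each kind of cell and no replicate, so no test between groups was made, and every interval given covers counting error only. The iNKT cells differed from the total thymocytes by library and bead selection as well as by kind, and these cannot be told apart.

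In resting lymphocytes NF-kB dimers are held in the cytoplasm by IkB proteins. T cell receptor and costimulatory signals activate the IkB kinase complex, which marks IkB alpha for destruction in the canonical pathway, while a subset of tumour necrosis factor (TNF) receptors, OX40 and RANK among them, also drive the processing of the p100 precursor that releases RelB dimers. Several inhibitors are themselves transcribed by NF-kB and form its negative feedback. In the thymus NF-kB activity is tied to the survival and maturation of thymocytes after selection, and iNKT cells are known to depend on it.

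After filtering, 8026 total thymocytes (28567412 UMIs, median 2414.5 a cell) and 11273 iNKT thymocytes (53277055 UMIs, median 4210) were kept. The libraries fitted their labels: ZBTB16, the transcription factor that defines iNKT cells, stood at 224 CPM (UMIs of a gene for every 1000000 UMIs of the same cells) in iNKT thymocytes and 0.385 CPM in total thymocytes, CD3E at 1228 and 1109 CPM, and RAG1, of the recombinase of double-positive cells, at 0.188 and 289.5 CPM. The libraries shared 41 cell barcodes, 30 of them kept in both. Cells were clustered within each library without the 9 genes and named only from lists of marker genes. Total thymocyte clusters 3 and 6 (2780 cells) were double-positive-like, clusters 4 and 9 (1120 cells) post-selection-like and cluster 5 (536 cells) gamma-delta T-like. Cluster 0 (1015 cells) was led by GZMH, CCR7, IFI6, SCML4, IFITM3 and ISG15, a mixture of interferon-response, cytotoxic and mature T cell genes. It is called by its number and serves as the mature comparator, since the median fold of 8 markers of naive mature T cells was highest there. Its levels of CCR7 and KLF2 were 482 and 234 CPM. KLF2 was higher in cluster 5, at 273 CPM, and the summed level of the 8 markers was 3175 CPM in cluster 0 but 4338, 3837 and 3263 CPM in clusters 4, 6 and 3. The iNKT cells compared were the 10969 outside a cycling-like cluster of 177 cells and a cluster of 127 cells led by JCHAIN and HLA-DRA. They include a cytotoxic T or NK-like cluster of 31 cells. Clusters below are total thymocyte clusters unless called iNKT clusters.

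Over 4 sets of cells (double-positive-like, post-selection-like, cluster 0 and iNKT), the subunits NFKB1, NFKB2 and RELB were lowest in double-positive-like cells, RELA was nearly flat and REL was highest in cluster 0. NFKB1, whose p105 product is cut to p50, stood at 5.99 CPM (95% interval 3.88 to 8.84) in double-positive-like cells, 39.3 CPM in post-selection-like cells, 55.0 CPM (47.4 to 63.5) in cluster 0 and 56.7 CPM (54.7 to 58.8) in iNKT cells. NFKB2, whose p100 product is both a precursor of p52 and an inhibitor, stood at 5.51, 29.7, 26.9 and 38.9 CPM in the same order. RELB, the partner of p52 in the noncanonical pathway, stood at 0.959 CPM (0.261 to 2.45, from 4 UMIs), 19.7, 16.4 and 29.5 CPM. For all 3 genes the interval in double-positive-like cells did not reach the levels of the other 3 sets of cells. RELA, which encodes p65, stood at 53.2, 52.2, 51.8 and 42.0 CPM, so that its level differed little from stage to stage.

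REL, which encodes c-Rel, followed another course. It stood at 63.0 CPM (55.6 to 71.1) in double-positive-like cells, 169 CPM in post-selection-like cells, 225 CPM (209 to 241.5) in cluster 0 and 59.7 CPM in iNKT cells. REL was thus higher in both later sets of total thymocytes than in double-positive-like cells, while the iNKT cells were at the double-positive-like level. Of the UMIs of the 5 subunits together, REL held 49.0% in double-positive-like cells, 54.5% in post-selection-like cells, 60.0% in cluster 0, 64.2% in gamma-delta T-like cells and 26.3% in iNKT cells.

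**Figure D1:**
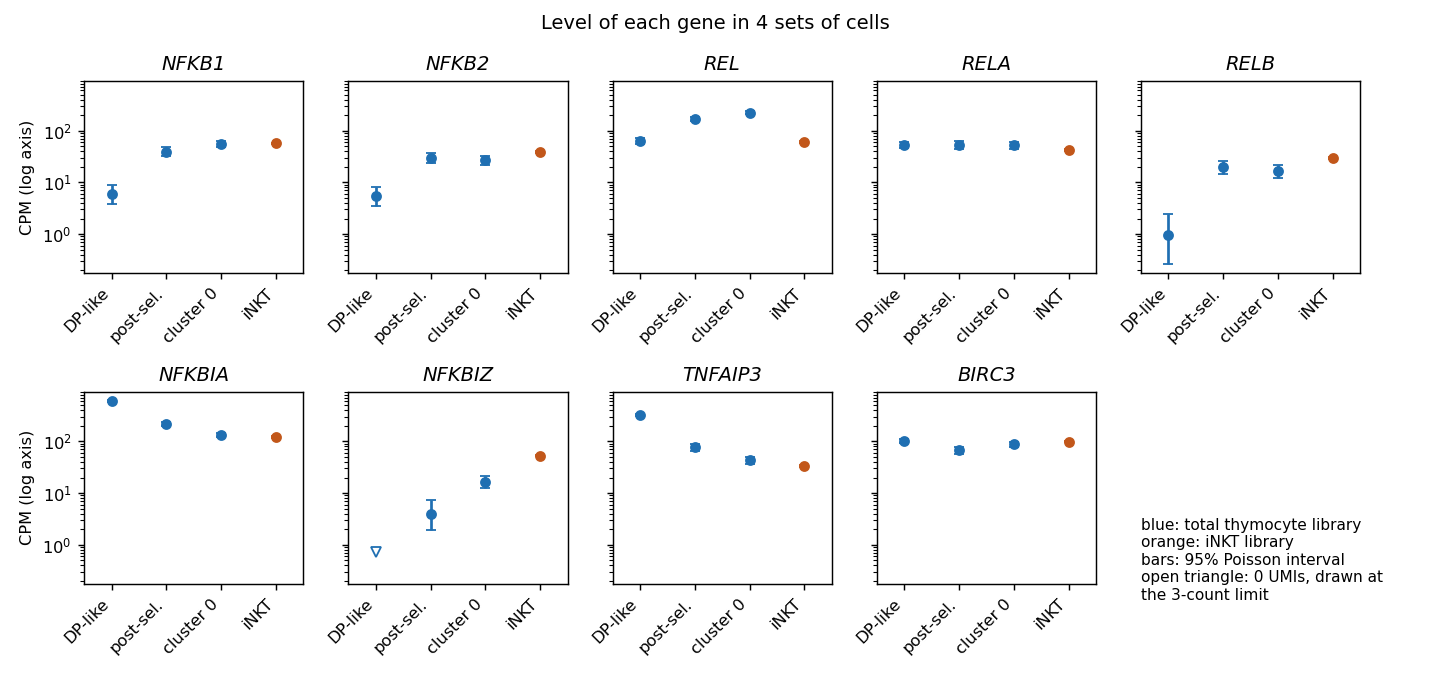
The level of each of the 9 genes (CPM, logarithmic axis) in double-positive-like, post-selection-like and cluster 0 total thymocytes and in compared iNKT cells, with 95% Poisson intervals for counting error. NFKB1, NFKB2 and RELB are lowest in double-positive-like cells, NFKBIA and TNFAIP3 are highest there, and RELA lies between 42.0 and 53.2 in all 4 sets.

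The feedback genes did not move together. NFKBIA, which encodes IkB alpha, was highest in double-positive-like cells at 596 CPM (573 to 620.1) and stood at 215 CPM in post-selection-like cells, 133 CPM (121 to 146) in cluster 0 and 122 CPM (119 to 125) in iNKT cells. TNFAIP3, which encodes the ubiquitin-editing enzyme A20, stood at 328 CPM (311 to 346), 77.0, 43.3 (36.6 to 50.9) and 33.7 CPM in that order. Both inhibitors were highest in the cells with the least NFKB1, NFKB2 and RELB. NFKBIZ, an atypical nuclear IkB protein that acts on selected target genes, had 0 UMIs in double-positive-like cells. With the limit set at 3 counts, a count of 0 stands for less than 0.719 CPM, or less than 0.108% of those 2780 cells with a UMI. NFKBIZ stood at 4.01 CPM in post-selection-like cells (10 UMIs), 16.7 CPM in cluster 0 and 53.4 CPM in iNKT cells, in increasing order. BIRC3, which encodes the ubiquitin ligase cIAP2, lay in a narrower range, at 102 CPM (92.4 to 112), 67.4, 88.1 and 98.7 CPM.

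The double-positive-like cells were shallow, with medians of 1604.5 UMIs in cluster 3 and 1127 UMIs in cluster 6, so the values per cell and at equal depth are set beside the CPM. NFKBIA gave 89.5 UMIs per 100 double-positive-like cells, 47.9 per 100 post-selection-like cells, 44.9 per 100 cells of cluster 0 and 56.8 per 100 iNKT cells. TNFAIP3 gave 49.2, 17.1, 14.6 and 15.7. Double-positive-like cells thus stayed highest per cell for both genes, with smaller gaps than in CPM, while the iNKT cells, lowest in CPM, came second for NFKBIA and above cluster 0 for TNFAIP3. With every cell thinned to 2000 UMIs, which left 512 double-positive-like cells, NFKBIA stood at 388, 169, 128 and 128 CPM and TNFAIP3 at 309.6, 76.6, 34.9 and 33.6 CPM. At that depth 46.1% of double-positive-like cells, 17.8% of cluster 0 and 19.0% of iNKT cells had a UMI of NFKBIA. For TNFAIP3 the shares were 43.4%, 6.34% and 6.02%.

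Both inhibitors varied within the double-positive-like cells and their neighbours. The level of NFKBIA was 460.5 CPM in cluster 3 and 717 CPM in cluster 6, against 226 CPM in cluster 1, an unnamed cluster led by DNTT, PTCRA, VPREB1 and RAG1, and 196 to 213.5 CPM in the S phase-like cluster 7 and the cycling-like clusters 8 and 10. That of TNFAIP3 was 299 and 354 CPM there, against 166 CPM in cluster 1 and 112 to 177 CPM in clusters 7, 8 and 10. In CPM both transcripts were thus higher in clusters 3 and 6. Per 100 cells NFKBIA gave 82.7 and 93.9 UMIs in clusters 3 and 6, against 149, 206 and 158 in the larger cells of clusters 7, 8 and 10. NFKBIA and TNFAIP3 together gave 1494 UMIs in the 1096 cells of cluster 3 and 2362 in the 1684 of cluster 6. In clusters 7, 8 and 10 they gave 978, 1089 and 706 UMIs in 385, 344 and 244 cells. The order per cell was thus the opposite for NFKBIA and for both inhibitors together. At 2000 UMIs a cell NFKBIA stood at 333 and 484 CPM in clusters 3 and 6 and at 212 to 241 CPM in clusters 1, 7, 8 and 10. The summed level of 8 immediate early genes, which respond to handling as well as to receptor signals, was 230 CPM in cluster 3 and 233.5 CPM in cluster 6. It was lower in clusters 1, 7, 8 and 10, at 152, 92.6, 118 and 197.5 CPM, and higher in cluster 0, at 276 CPM. It was 632 CPM in cluster 4, 1111 CPM in cluster 9, and 796 to 1469 CPM over iNKT clusters 0 to 6. Its part in the values of NFKBIA and TNFAIP3 was not tested.

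**Figure D2:**
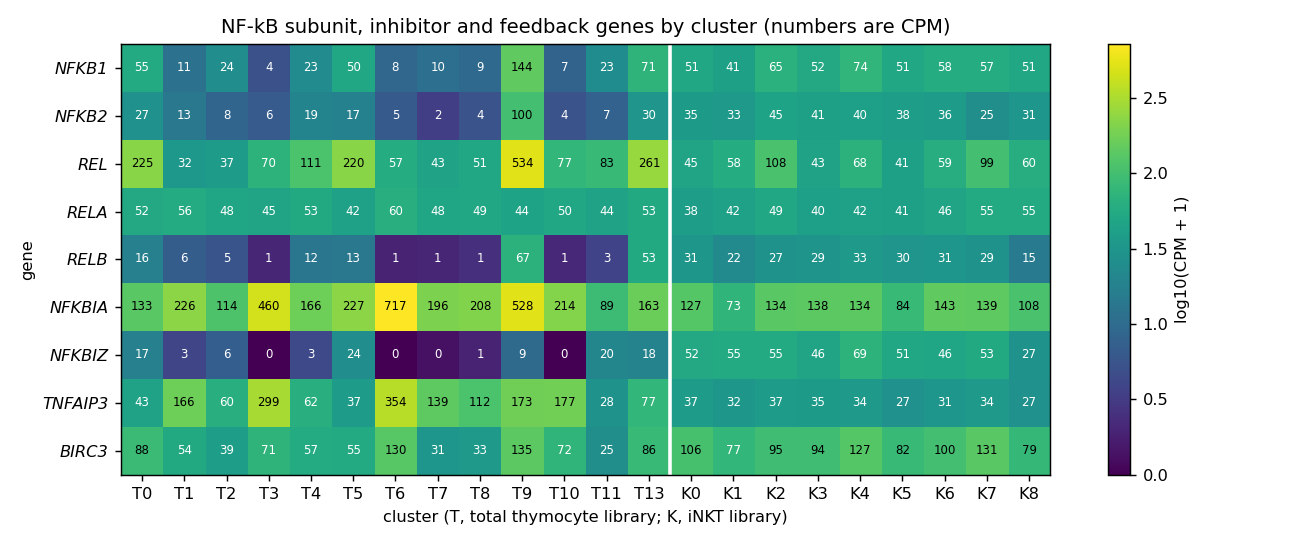
The level of each gene (colour, log10 of CPM plus 1, with the CPM printed) in the 13 total thymocyte clusters and 9 iNKT clusters of at least 50 cells, 1 row per gene and 1 column per cluster. NFKBIA is most intense in clusters 6, 9 and 3, TNFAIP3 in clusters 6 and 3, NFKBIZ in the iNKT clusters, and REL in cluster 9.

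Over the 22 clusters of at least 50 cells, RELA varied least, its highest cluster being 1.57 times its lowest, followed by BIRC3 at 5.39 times. The other values were 9.89 for NFKBIA, 13.2 for TNFAIP3, 16.6 for REL, 35.3 for NFKB1, 41.5 for NFKB2 and 74.35 for RELB, while NFKBIZ had clusters at 0 UMIs. NFKB1, NFKB2, REL and RELB were all highest in cluster 9, at 144, 99.7, 533.5 and 67.4 CPM. Neighbours in the order of levels were mostly not separable: of the 21 neighbouring pairs the counting intervals overlapped in 21 for RELA and RELB, in 20 for NFKB2 and BIRC3, in 19 for REL, NFKBIA and NFKBIZ and in 18 for NFKB1 and TNFAIP3.

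Differences between sets of cells were counted at a 2-fold ratio of CPM among genes with at least 100 UMIs over both sets. From double-positive-like to post-selection-like cells 6 of the 9 genes could be counted. Of these NFKB1 (6.56 times, 4.195 to 10.6) and REL (2.68 times, 2.29 to 3.14) were higher and NFKBIA (0.361 times, 0.328 to 0.396) and TNFAIP3 (0.235 times, 0.201 to 0.274) were lower. Of 6214 genes 6% were higher and 8.71% lower. RELA (0.980) and BIRC3 (0.662) stayed within 2-fold. Below 100 UMIs, NFKB2 had a ratio of 5.39 (3.33 to 9.01) and RELB of 20.5 (7.52 to 78.3). NFKBIZ had 10 UMIs against 0 in double-positive-like cells, and its interval lay above a ratio of 3.75. The 2 higher counts rested on cluster 9. Without its 112 cells, REL had a log2 ratio of 0.82, NFKB1 of 1.93 from fewer than 100 UMIs, and 0 of 5 genes were counted higher, while NFKBIA (-1.85) and TNFAIP3 (-2.41) were lower still.

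Cluster 0 was set against the same double-positive-like cells, so the comparisons share those cells. Of 7 genes counted, NFKB1 (9.18 times, 6.03 to 14.6), NFKB2 (4.88 times, 3.07 to 8.08) and REL (3.57 times, 3.099 to 4.12) were higher and NFKBIA (0.224 times, 0.202 to 0.247) and TNFAIP3 (0.132 times, 0.111 to 0.157) were lower. Of 6610 genes 8.47% were higher and 10.9% lower. RELA (0.973) and BIRC3 (0.865) stayed within 2-fold, and RELB had a ratio of 17.1 (6.32 to 64.9) from fewer than 100 UMIs. NFKBIZ had 57 UMIs against 0, also fewer than 100, and its interval lay above a ratio of 18.3. Subunits other than RELA were thus higher in cluster 0, and NFKBIA and TNFAIP3 lower.

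The share of inhibitor to subunit transcripts summarised these changes. UMIs of NFKBIA plus TNFAIP3 were divided by those of NFKB1, NFKB2 and RELB. REL and RELA were left out, although they held 49.0% and 41.3% of the UMIs of the 5 subunits in double-positive-like cells. The quotient compares cells with each other; it is not a ratio of molecules or proteins. It was 74.2 (56.4 to 99.5) in double-positive-like cells, 3.29 (2.83 to 3.85) in post-selection-like cells, 1.80 (1.57 to 2.06) in cluster 0 and 1.24 (1.20 to 1.29) in iNKT cells. Cluster 1 stood between at 13.3 (10.7 to 16.7), and the cycling-like and S phase-like clusters 7, 8 and 10 at 22.2 to 30.7. The cycling-like clusters 2 and 11 were lower, at 4.81 and 3.56, and all 1367 cycling-like and S phase-like cells together stood at 13.2. The iNKT clusters lay between 0.938 and 1.57, so each of them was below the total thymocyte clusters other than the cytotoxic T or NK-like cluster 13, at 1.56. The order of cluster 0 and iNKT cells depended on the subunits taken. Over all 5 subunits, 604 inhibitor UMIs stood beside 1282 subunit UMIs in cluster 0 and 7952 beside 11598 in iNKT cells, so cluster 0 was lower. Double-positive-like cells stayed highest of the sets compared, at 3856 beside 537.

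**Figure D3:**
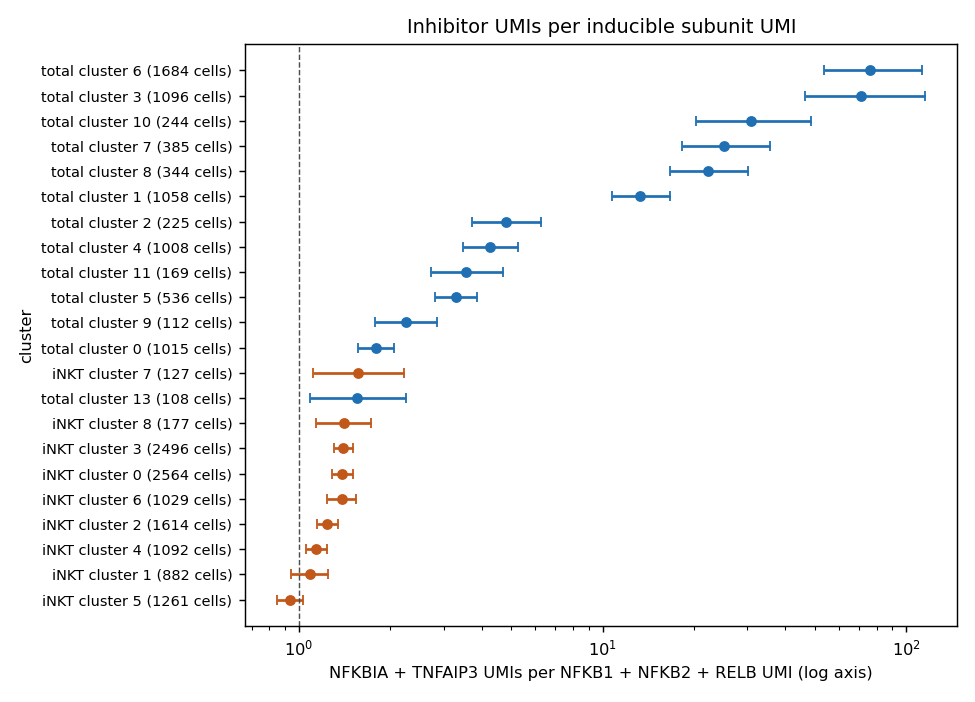
UMIs of NFKBIA plus TNFAIP3 for each UMI of NFKB1, NFKB2 and RELB (logarithmic axis) in each cluster of at least 50 cells, with 95% intervals for counting error. The double-positive-like clusters 3 and 6 are highest at 71.1 and 76.2, and the iNKT clusters lie between 0.938 and 1.57.

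For whole libraries, the composition of the total thymocytes enters every ratio. iNKT over total thymocytes, the ratios were 7.02 (6.11 to 8.10) for NFKBIZ, 3.93 (3.40 to 4.56) for RELB, 3.14 (2.80 to 3.52) for NFKB2 and 2.39 (2.20 to 2.60) for NFKB1. They were 0.499 (0.483 to 0.517) for NFKBIA and 0.263 (0.249 to 0.279) for TNFAIP3. Thus 4 of the 9 genes were counted higher and 2 lower, where 11% of 10436 genes were higher and 17.5% lower. BIRC3 (1.64), RELA (0.857) and REL (0.579) stayed within 2-fold. The median log2 ratio was 0.72 over the 9 genes and -0.24 over all genes counted. TMM scaling, which assumes that most genes are alike, moved every log2 ratio up by 0.31. Under it RELA stood at 0.09, turning its direction, NFKBIA at -0.69, below 2-fold, and BIRC3 at 1.03, above it.

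Against cluster 0, most of the differences between the libraries were smaller. NFKBIZ was 3.20 times (2.46 to 4.24) as high in iNKT cells and REL 0.266 times (0.245 to 0.288), the 1 higher and 1 lower of the 9 genes, where 7.91% of 9514 genes were higher and 7.32% lower. NFKB1 differed by no more than counting error, with a ratio of 1.03 (0.890 to 1.20), and NFKBIA by little, at 0.914 (0.831 to 1.01), which TMM scaling turned to a log2 ratio of 0.11. TNFAIP3 was at 0.777 (0.657 to 0.926), RELA at 0.812 (0.696 to 0.952), BIRC3 at 1.12, NFKB2 at 1.45 (1.17 to 1.80) and RELB at 1.80 (1.38 to 2.39). Under TMM scaling the log2 ratio of RELB was 1.09, past 2-fold. NFKBIA and TNFAIP3 thus lay closer to 1 here than between the whole libraries.

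The gamma-delta T-like cells, another unconventional lineage, were set beside the same iNKT cells. NFKB2 was 2.27 times (1.69 to 3.12), RELB 2.28 times (1.62 to 3.30) and NFKBIZ 2.19 times (1.71 to 2.85) as high in iNKT cells, and REL 0.272 times (0.249 to 0.298). The 3 higher and 1 lower of 9 stood beside 10.4% higher and 12.4% lower of 9538 genes. The other genes lay within 2-fold, from 0.537 for NFKBIA to 1.79 for BIRC3, with NFKB1 at 1.13 and RELA at 1.002. REL measured 219.6 CPM in gamma-delta T-like cells, near the 225 CPM of cluster 0, so both non-iNKT sets had about the same level and iNKT cells a lower one.

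**Figure D4:**
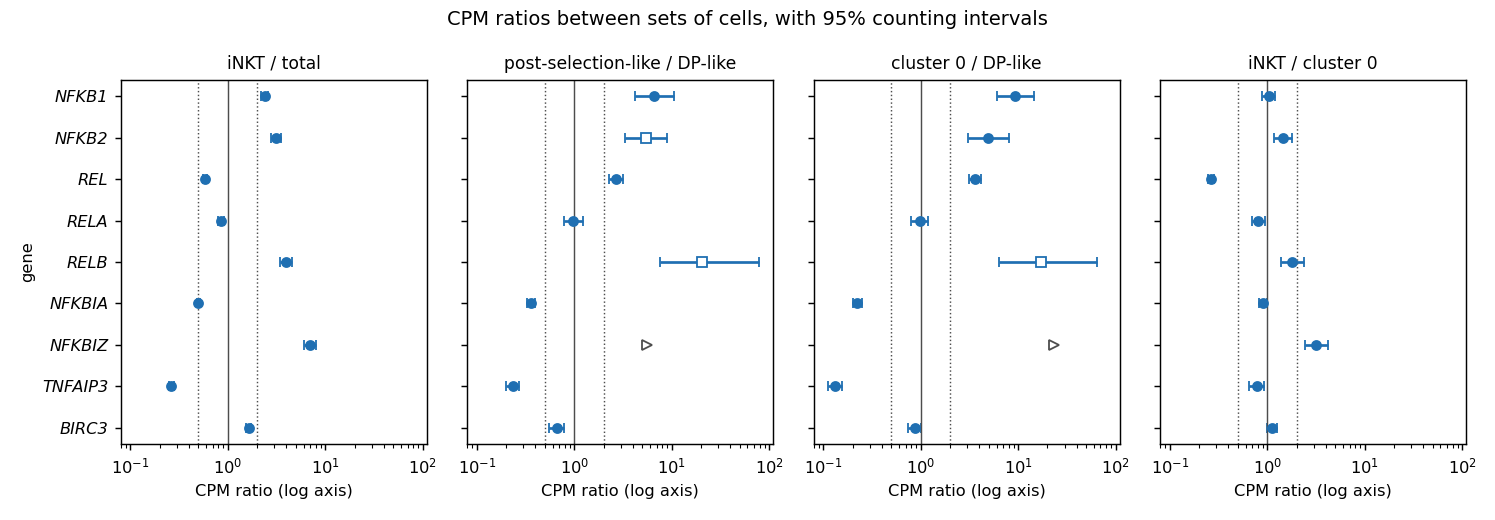
The ratio of CPM of each gene (logarithmic axis) in 4 comparisons, with 95% intervals for counting error and lines at the 2-fold ratio. Open squares mark genes below 100 UMIs. Open arrows without an interval mark NFKBIZ over double-positive-like cells, where it had 0 UMIs. TNFAIP3 and NFKBIA are lower in both comparisons with double-positive-like cells and in iNKT over total thymocytes, while in iNKT cells over cluster 0 only NFKBIZ and REL lie past 2-fold.

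Within the post-selection-like cells, cluster 9 stood apart from cluster 4. It was led by XCL1, CCL4, NR4A3, CD40LG, TNFRSF4, TNFRSF9, NR4A1 and TNFRSF18. REL was 4.803 times (3.94 to 5.85), NFKBIA 3.19 times (2.65 to 3.83), TNFAIP3 2.80 times (2.02 to 3.83) and BIRC3 2.38 times (1.66 to 3.36) as high as in cluster 4. These were 4 of the 5 genes counted, with 0 lower, where 3.26% of 3408 genes were higher and 5.78% lower. RELA stood at 0.823. Below 100 UMIs, the ratios of NFKB1 (6.31), RELB (5.58) and NFKB2 (5.36) were as large, and that of NFKBIZ (2.70) rested on 3 and 7 UMIs. Subunits and inhibitors were thus high together in cluster 9, with TNFAIP3 at 173 CPM and NFKBIA at 528 CPM. The cluster's inhibitor to subunit quotient of 2.26 (1.79 to 2.86) was below the 4.25 of cluster 4.

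Among the iNKT cells, iNKT cluster 2 (1614 cells) was led by CCL4, CD200, CD69, CTLA4 and EGR2. REL was 2.13 times (1.96 to 2.30) as high there as in the other compared iNKT cells. It was the only 1 of 9 genes past 2-fold, where 2.95% of 9380 genes were higher and 4.35% lower. The other 8 genes lay between 0.919 and 1.20 times. REL stood at 108 CPM in iNKT cluster 2 and between 41.2 and 67.6 CPM in iNKT clusters 0, 1 and 3 to 6. The highest iNKT cluster was thus still below the 225 CPM of cluster 0, and without iNKT cluster 2 the log2 ratio of REL to cluster 0 was -2.14.

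The genes were next set beside TNFRSF4 (the receptor OX40), TNFRSF18 (the receptor GITR) and TNFSF11 (the ligand RANKL) cell by cell. The receptors lie upstream of NF-kB, and RANKL is the signal that developing T cells give to medullary epithelium. TNFRSF4 stood at 0.719 CPM in double-positive-like cells, 131 CPM in cluster 0, 352 CPM in cluster 9 and 1258 CPM in the iNKT library. For TNFRSF18 the levels were 3.36, 64.4, 428 and 556 CPM, and for TNFSF11 0.479, 38.9, 64.5 and 65.8 CPM. Cells were thinned to 2000 UMIs, which left 4774 total and 10965 iNKT thymocytes, and ratios were counted at 1.5-fold. Of thinned cluster 3 cells, 0% had a TNFRSF4 UMI (up to 1.125% by the exact binomial interval), against 15.04% of cluster 0. Within total thymocytes these transcripts were thus higher in clusters 0 and 9 than in double-positive-like cells, as NFKB1 and REL were, and this division of cells by stage enters each ratio.

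In total thymocytes 185 cells had a TNFRSF4 UMI, 140 of them (75.7%) in cluster 0, and 4589 had none. NFKB2 was 4.96 times (3.06 to 7.74), NFKB1 4.29 times (3.002 to 5.998), BIRC3 2.63 times (1.96 to 3.47), REL 2.06 times (1.64 to 2.55) and RELA 1.51 times (0.994 to 2.22) as high in the positive cells. TNFAIP3 was at 0.473 (0.292 to 0.727) and NFKBIA at 1.498 (1.23 to 1.81), just under the threshold. The 5 higher and 1 lower of 7 genes stood beside 12.1% higher and 23.8% lower of 7323 genes. RELB (5.14) and NFKBIZ (3.54) had fewer than 100 UMIs. With cells compared only within their cluster, the ratios were 2.24 for NFKB2, 2.02 for NFKB1, 2.14 for NFKBIA, 1.89 for BIRC3, 1.55 for RELA, 1.03 for REL and 1.02 for TNFAIP3. Pooled within clusters, REL and TNFAIP3 were thus close to 1, while the ratio of NFKBIA was larger. Inside cluster 0 alone, with 140 positive and 791 negative cells, NFKBIA was at 2.02 (1.49 to 2.71). NFKB1 (1.46), NFKB2 (1.61), BIRC3 (1.34), RELA (1.62) and RELB (1.65) were above 1 there, but their intervals included 1. NFKBIZ was at 2.825, with its interval above 1. TNFAIP3 was at 0.575 (0.203 to 1.33), from 6 UMIs in the positive cells, and REL at 0.818 (0.603 to 1.09), so both intervals included 1. Cluster 0 was itself mixed, and before thinning it held 67 of the 70 UMIs of FOXP3, a regulatory T cell gene, in this library. The part of such cells in the ratios inside cluster 0 was not tested.

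For TNFRSF18, 230 total thymocytes had a UMI and 4544 had none. NFKB2 (4.35 times), NFKB1 (3.92), REL (2.16) and BIRC3 (1.89) were higher. TNFAIP3 (0.674), RELA (1.11) and NFKBIA (1.26) were within 1.5-fold, and RELB (5.32) and NFKBIZ (2.53) had fewer than 100 UMIs. The 4 higher and 0 lower of 7 stood beside 10.6% and 18.5% of all genes. Within clusters NFKB1 was at 2.04, NFKB2 at 2.06, BIRC3 at 1.52 and REL at 1.21. For TNFSF11, with 108 positive and 4666 negative cells, NFKB2 (3.22 times, 1.51 to 6.12), REL (2.22 times, 1.67 to 2.89) and NFKB1 (1.61 times, 0.764 to 3.01) were counted higher. NFKBIA (0.630, 0.421 to 0.907), RELA (0.448, 0.145 to 1.05) and TNFAIP3 (0.428, 0.213 to 0.768) were counted lower. These 3 and 3 of 7 stood beside 15.5% and 22.4%, and the intervals of NFKB1 and RELA included 1. BIRC3 was at 1.295, and RELB (3.29) and NFKBIZ (2.60) had fewer than 100 UMIs. Compared only within clusters, REL was at 1.19, TNFAIP3 at 0.947 and BIRC3 at 0.962, close to 1. NFKB2 was then at 1.56, NFKB1 at 0.778, NFKBIA at 0.749 and RELA at 0.448. The directions of NFKB1, NFKBIA and NFKBIZ beside TNFSF11 turned under some of the other settings tried.

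In iNKT thymocytes a TNFRSF4 UMI was the rule: 8697 thinned cells (79.3%) had one and 2268 had none. RELB was 1.55 times (1.25 to 1.94) as high in the positive cells, the only 1 of 9 genes past 1.5-fold, beside 1.65% higher and 1.43% lower of 8305 genes. BIRC3 (1.37), NFKB2 (1.36), NFKBIA (1.31, 1.19 to 1.45), TNFAIP3 (1.21) and NFKB1 (1.19) lay above 1, and NFKBIZ (1.03), RELA (0.940) and REL (0.927) close to it. By TNFRSF18, with 6385 positive and 4580 negative cells, none of the 9 genes passed 1.5-fold in either direction, beside 0.807% and 0.891% of all genes, and the ratios ran from 0.933 for REL to 1.26 for BIRC3 and 1.27 for RELB. By TNFSF11, with 1131 positive and 9834 negative cells, none of the 9 passed, beside 2.83% and 4.17%. REL there was at 1.42 (1.21 to 1.66), and at 1.12 within clusters, and the other 8 genes lay between 0.818 for BIRC3 and 1.065 for NFKBIZ.

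Most iNKT cells (79.3%) had a TNFRSF4 UMI, and its presence does not tell few UMIs from many. Cells were therefore also divided by the number of TNFRSF4 UMIs, a division chosen after the values above were seen. The level of NFKBIA was 102 CPM in cells with 0 TNFRSF4 UMIs, then 96.7, 111, 134.6, 137.5 and 156 CPM with 1 to 5, and 222 CPM with 6 or more. For RELB the levels were 21.4, 23.3, 31.7, 32.4, 32.1, 39.9 and 51.0 CPM, and for BIRC3 78.0, 95.5, 99.6, 100.2, 106.5, 103 and 147 CPM. All 3 genes were lowest or near their lowest with 0 or 1 TNFRSF4 UMIs and highest with 6 or more.

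**Figure D5:**
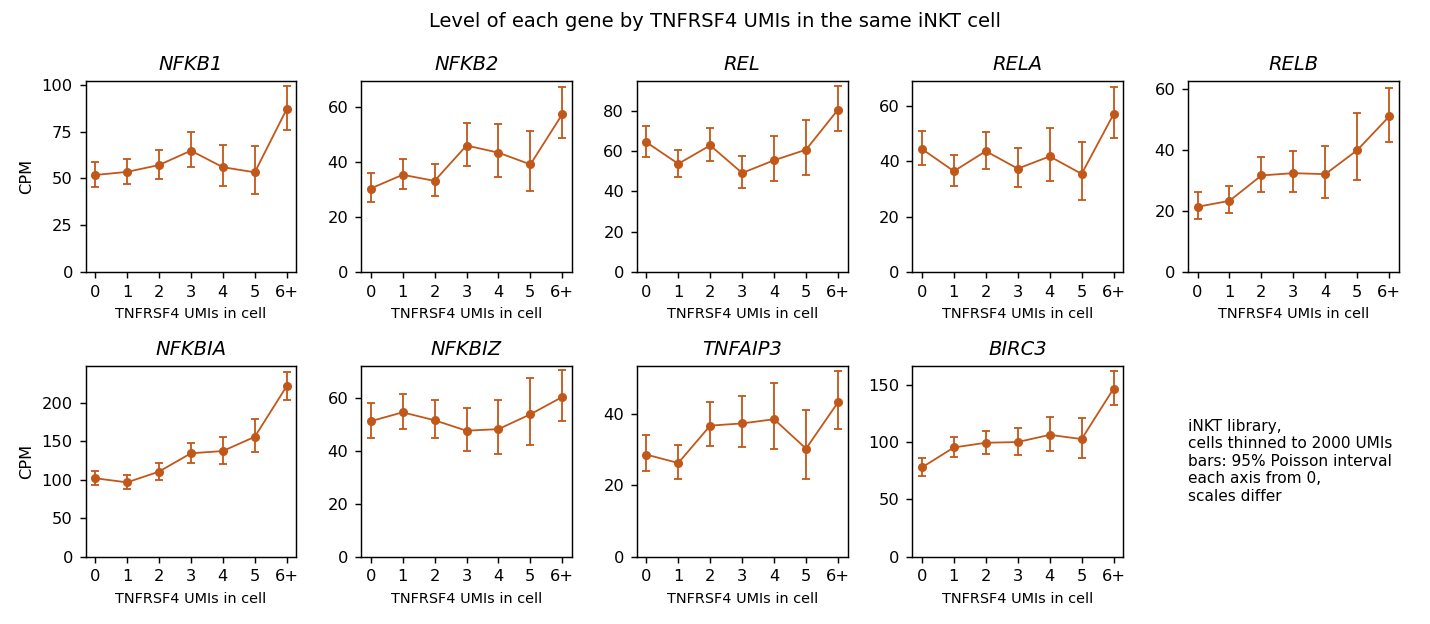
The level of each gene (CPM) in iNKT thymocytes thinned to 2000 UMIs, by the number of TNFRSF4 UMIs in the cell, with 95% Poisson intervals for counting error. NFKBIA goes from 102 with no TNFRSF4 UMI to 222 with 6 or more, and RELB from 21.4 to 51.0.

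Between the 1304 iNKT cells with 6 or more TNFRSF4 UMIs and the 2268 with none, 6 of the 9 genes were at least 1.5-fold higher and 0 lower, beside 3.16% higher and 2.38% lower of 6008 genes. RELB stood at 51.0 against 21.4 CPM, 2.39 times (1.82 to 3.13). NFKBIA stood at 222 against 102 CPM, 2.18 times (1.92 to 2.46), and BIRC3 at 147 against 78.0 CPM, 1.88 times (1.62 to 2.18). NFKB2 stood at 57.5 against 30.4 CPM, 1.89 times (1.49 to 2.40). The other 2 were NFKB1 (1.68 times, 1.39 to 2.03) and TNFAIP3 (1.51 times, 1.16 to 1.96). RELA (1.28), REL (1.25) and NFKBIZ (1.18) stayed within 1.5-fold. The median log2 ratio was 0.75 over the 9 genes and 0.03 over all genes counted.

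The groups with many and with no TNFRSF4 UMIs were not alike in makeup. iNKT cluster 1, led by TOX2 and PSAT1, held 1.92% of the first and 17.6% of the second, and iNKT cluster 0 held 29.3% and 15.4%. Median depth before thinning was 3876 and 4389 UMIs, and ribosomal genes took 24.7% and 26.2% of UMIs. Within clusters the ratios were 2.32 for RELB, 2.08 for NFKBIA, 1.84 for BIRC3, 1.74 for NFKB2, 1.62 for NFKB1, 1.44 for TNFAIP3, 1.37 for REL, 1.34 for RELA and 1.23 for NFKBIZ. Of the 6 iNKT clusters with enough cells in both groups, NFKBIA was above 1 in 6, with the interval above 1 in 6 and ratios from 1.61 to 2.88. BIRC3 was above 1 in 6 clusters, with the interval above 1 in 5. RELB, NFKB1, NFKB2 and TNFAIP3 were also above 1 in 6, with the interval above 1 in 3, 3, 2 and 1. By TNFRSF18, the 777 iNKT cells with 4 or more UMIs had RELB at 1.504 times (1.12 to 1.995) the 4580 cells with none, the only 1 of 9 past 1.5-fold, beside 4% higher and 5.98% lower of 7002 genes. Within clusters its ratio was 1.487, under the threshold. Without regard to cluster, BIRC3 was at 1.39, NFKB1 at 1.35, RELA at 1.31, NFKBIA at 1.29, REL at 1.265 and NFKB2 at 1.235. NFKBIZ was at 1.14 and TNFAIP3 at 0.913. Within clusters NFKBIA was at 1.31 and TNFAIP3 at 0.848. Over single cells, rank correlations between any of the 9 genes and these 3 transcripts were at most 0.12 in size, in sparse counts that share depth, and are given only as a description.

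The other genes of the pathway were described from 5 lists, in iNKT over total thymocytes, where the median log2 ratio of all genes was -0.24, 11% were higher and 17.5% lower. Of IkB kinase complex genes and upstream adaptors, 5 of 23 passed 2-fold upward and 1 downward, and the median log2 ratio was 0.22. They included TRAF3 (3.69 times), which restrains the noncanonical kinase NIK, TRAF5 (3.03 times), an adaptor of OX40, and RBCK1 (0.439 times), a subunit of the linear ubiquitin ligase. Of 19 other inhibitors 3 were higher and 1 lower, with a median of 0.21. BCL3, a nuclear IkB protein, was at 3.97 times, CYLD, a deubiquitinase, at 3.30 times and TNIP3, a binding partner of A20, at 0.00217 times, from 4 UMIs in iNKT and 988 UMIs in total thymocytes. Of 32 known NF-kB target genes 15 were higher and 6 lower, with a median of 0.58. The most changed were CD40LG (15.25 times), PLEK (9.32 times), VCAM1 (0.0348 times) and BCL2L1 (0.110 times), the last a survival gene of double-positive cells. Of 13 receptors 7 were higher and 2 lower, led by TNFRSF4 (54.5 times) and EDAR (49.7 times), with TNFRSF9 (0.141 times) and TNFRSF13C (0.391 times) lower, and of 10 TNF-family ligands 8 were higher and 0 lower, led by CD40LG and TNFSF9 (11.9 times). The lists share genes, CD40LG among them.

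Against cluster 0, where 7.91% of all genes were higher and 7.32% lower in iNKT cells, the counts were 4 higher and 0 lower of 23 kinase and adaptor genes, 0 and 0 of 18 inhibitors, 6 and 3 of 28 targets, 5 and 1 of 11 receptors and 4 and 0 of 9 ligands. TRAF1, itself an NF-kB target, was at 2.79 times. From double-positive-like cells to cluster 0, BCL3 was 31.9 times and TRAF3 10.99 times as high, while BCL2L1 was at 0.0768 times. Of 19 targets 10 were higher and 3 lower there, with a median log2 ratio of 1.36 beside -0.19 for all genes.

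The genes whose levels over the 22 clusters were most like each of the 9 were ranked by Pearson correlation of log2(CPM + 10) among 5454 genes; clusters share their library and depth, so this is a description. RELB was most like NFKB2 (r = 0.95), NFKB1 (0.94) and EVI2A (0.93). NFKB1 was most like TPM4 (0.93) and NFKB2 (0.92), and NFKB2 like PRKCA, B3GNT2 and CCR4 (0.93 each). Both inhibitors of the double-positive-like cells had similar courses, TNFAIP3 being second to C12orf29 (0.88) in likeness to NFKBIA, at 0.87. TNFAIP3 itself was most like ZFP2 (0.95) and BCL2L1 (0.93). NFKBIZ was most like PCBD1 (0.96), CAPG and KLF2 (0.95 each), and its correlation with TNFAIP3 was -0.85. REL was most like TGFB1 (0.89) and XCL1 (0.86), BIRC3 like ZFP36L1 (0.86), and RELA like SART3 (0.79). NFKB1 and REL had a correlation of 0.53 over all 22 clusters and 0.89 over the 13 total thymocyte clusters.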

How the data were processed

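The deposited files hold raw UMI counts per gene and cell for 1 library of total thymocytes and 1 of iNKT thymocytes, which the authors made with Cell Ranger 3.1 per the submitters' processing notes (3.1.0 per the file headers); Seurat 3.1 is also named there, without its role. The genome build is not given in the sources used here, and no coordinates or sequences are printed. The files name 6455 genes by identifier only; TNFRSF18 took its symbol from a table of gene names.

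Cells with at least 500 genes and at most 10% mitochondrial UMIs (13 genes) were kept, 88.1% of 9112 total and 93.2% of 12097 iNKT barcodes. Scrublet called 0 doublets in either library, which shows that the call did not work, so doublets remain. Each library was clustered alone (scanpy 1.11.5, 2000 variable genes without the 9 genes, their partners and pathway genes that mark no cell type, 30 components, 15 neighbours, Leiden resolution 1, seed 7). A cluster was named from at least 3 markers unless its leading genes went against the name. UMIs were summed per set of cells and divided by the set's total. A ratio has an exact conditional binomial 95% interval, a level an exact Poisson interval, a share a Clopper-Pearson interval. Cells are not replicates, and UMIs count molecules once, so intervals cover counting error only. Genes needed 100 UMIs to be counted, at 2-fold between sets of cells and 1.5-fold beside TNFRSF4, TNFRSF18 and TNFSF11, where cells were thinned to 2000 UMIs. Ratios within clusters are Mantel-Haenszel ratios. TMM scaling used edgeR 4.0.16. The calculations were tested on simulated data.

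The genes and lists were chosen with earlier results of these data known, although the rule for the 9 genes uses symbols alone. All 9 genes were computed in every comparison and are given by value or range; of each pathway list the 2 most changed in each direction between the libraries; for likeness up to the 3 most similar among genes with a mean of at least 20 CPM. Any other gene named was chosen after its values were seen, as were the comparisons of clusters 9 and 4, of iNKT cluster 2, of gamma-delta T-like cells and by number of receptor UMIs. The quotient of NFKBIA and TNFAIP3 to NFKB1, NFKB2 and RELB was not among the planned results either. Of the listed pathway genes, BIRC2, TANK, IER2, LTB, BCL2, TNFRSF14, TNFRSF8 and TNFSF10 were not matched by symbol. Alternatives changed the cell filters, clustering, scaling, thinning, thresholds and clusters used.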

Additional observations from a re-analysis of the deposited data

Results flagged for a closer look

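TNFAIP3 lay on opposite sides of 1 beside TNFRSF4 in the libraries. In total thymocytes its level in cells with a TNFRSF4 UMI was 0.473 times that in cells without, and in iNKT thymocytes it was 1.21 times. The difference between the libraries was not tested, since each is 1 library. With cells compared only within their cluster the ratio in total thymocytes was 1.02. In cluster 0, which held 140 of the 185 positive cells, TNFAIP3 was at 0.575 (0.203 to 1.33).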

How the results depend on the processing

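No paired analysis was possible because each kind of cell has 1 library of pooled cells. Of 107 recomputed counts of genes past the threshold, 89 stayed within 1.5 times the reported one. With at most 5% mitochondrial UMIs, the counts were 3 in place of 5 for cluster 0 over double-positive-like cells, 3 in place of 6 by TNFRSF4 and 2 in place of 6 by TNFSF11 in total thymocytes. The 4 of post-selection-like over double-positive-like cells became 2 without the shared barcodes, at resolution 2 or without cluster 9. In total thymocytes TNFRSF18 gave 7 in place of 4 at the cells' own depth, and TNFSF11 gave 3 without cluster 9 and 2 within clusters. In iNKT thymocytes, the 1 by TNFRSF4 became 0 without the shared barcodes, without iNKT cluster 2 or within clusters, 2 with thinning to 1000 UMIs or without cycling cells, and 6 for 6 or more UMIs. The 0 by TNFSF11 became 2 with thinning to 1000 UMIs and 4 for 2 or more UMIs, and the 0 by TNFRSF18 became 1 for 4 or more UMIs.

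Of 963 recomputed values of single genes, 742 lay within the counting interval of the reported value and 211 outside it. In the other 10, all in total thymocytes, a value past the threshold changed sign. Values under the threshold that changed sign, such as RELA and NFKBIA under TMM scaling, are not among these 10. Beside TNFSF11 the log2 ratio of NFKBIZ was -0.06 with a minimum of 200 genes and -1.04 without cluster 9. That of NFKBIA was 0.51 at the 5% mitochondrial limit, 0.00 with cells of high doublet score left out and 0.07 without shared barcodes. That of NFKB1 was -0.47 with thinning to 1000 UMIs and -0.36 within clusters. Beside TNFRSF4, TNFAIP3 stood at 0.04 at the 5% limit and 0.03 within clusters, and RELA at -0.05 at the cells' own depth. The cause of these changes was not tested.

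Between libraries, TNFAIP3 stayed lower in iNKT thymocytes (log2 -2.38 to -1.61) and NFKB1 higher (0.86 to 1.57) under every alternative run; over double-positive-like cells TNFAIP3 in cluster 0 ranged from -3.33 to -2.74 and NFKBIA from -2.76 to -1.51. REL in iNKT cells over cluster 0 ranged from -2.14 to -1.67. Depth limits RELB and NFKBIZ most, at 4 and 0 UMIs in double-positive-like cells. With 2 or more TNFSF11 UMIs, 19 total thymocytes were left, under the minimum of 20 for a count, and no count was made.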
